A study of Mus musculus with 12 samples.

Results

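A set of 10 Wnt genes was examined in mouse mesangial cells (MMC): the ligands Wnt2 and Wnt5a, the secreted antagonists Sfrp1, Sfrp2 and Dkk3, the intracellular feedback inhibitors Nkd1, Nkd2 and Axin2, and the transcription factors Lef1 and Tcf7. They were chosen by gene symbol, and all 10 were found among the 25230 genes of the count tables. Gene positions below are those of RefSeq on GRCm38.p6, the assembly of mm10, and no exon of the 10 genes overlaps another counted gene. MMC are the contractile cells that hold the capillary tufts of the glomerulus together, here cultured from the pooled glomeruli of wild-type (WT) mice and of mice of the lncMGC-KO5 line. In that line Cas9 and a pair of guides removed the start of lncMGC, the long noncoding RNA that hosts a large microRNA cluster, in C57BL/6J embryos, so that KO stands for homozygotes of 1 mutant line. Serum-depleted cells (SD) were set beside cells given 10 ng/ml TGF-β for 24 h. The 4 groups, each of 3 RNA-seq libraries, are called WT-SD and KO-SD without TGF-β and WT-TGF and KO-TGF with it. The study calls its samples independent. Whether the 3 libraries of a group came from separate mice or cultures is not given in the sources used here, so p-values measure the spread between libraries, which may be technical.

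The libraries held between 19898050 and 22827706 counts on genes, and 3 counts, used as the detection floor, were worth 0.130 to 0.161 CPM (counts scaled to a common library size). lncMGC has no row of its own in the counts, so the deleted transcript could not be read. Of its neighbors, the noncoding RNA Rian had 42.3 ± 2.60 CPM (SD, n = 3) for WT-SD, 76.2 ± 3.20 for WT-TGF, 69.9 ± 0.865 for KO-SD and 99.3 ± 5.52 for KO-TGF. Mirg had 2.33 ± 0.308, 3.59 ± 0.153, 3.67 ± 0.547 and 4.27 ± 0.549 CPM in the same order. Both means were higher in KO than in WT in each condition, so these rows do not show a loss of transcripts from the locus, and KO below stands for the libraries labelled KO. The study, which states that mouse lncMGC shares exons with both, reports the opposite from quantitative PCR, with Rian and Mirg lower in KO5 cells. It also reports that sequencing showed the deletion and that KO5 cells lacked lncMGC expression. The cause of this disagreement was not tested. Of 8 mesangial markers, 7 were above the floor in each group. Their summed level was carried by Acta2 and Tagln and lay between 2542 and 2676 CPM for WT-SD, 5763 and 5913 CPM for WT-TGF, 4907 and 5067 CPM for KO-SD, and 11015 and 11108 CPM for KO-TGF. Pdgfrb, a receptor gene on this list, had 288 CPM for WT-SD and 306 CPM for KO-SD, and Itga8 had 2.89 and 3.05 CPM. Thy1 had at most 1 count in any library, and Des had 7.67 CPM for WT-SD and 0.529 CPM for KO-SD. The summed levels of 6 endothelial markers stayed at or below 1.01 CPM.

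Wnt proteins are secreted lipid-modified ligands that bind Frizzled receptors with co-receptors of the LRP or ROR families. In the canonical branch they stop the destruction complex from degrading β-catenin, which then enters the nucleus and activates genes together with TCF and LEF factors. Axin2, Nkd1, Lef1 and Tcf7 are themselves widely used targets of that branch, and Axin2 and the Nkd proteins feed back to dampen the signal. SFRP proteins bind Wnt ligands outside the cell, and in the kidney the pathway is best known from nephron formation and from fibrosis.

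The genes differed widely in level (plot of CPM by library). Per exon length, the mean over the 12 libraries was highest for Dkk3 at 229.7 RPKM (CPM per kilobase of exon), followed by Wnt5a at 18.2, Wnt2 at 3.19, Sfrp1 at 2.89, Lef1 at 2.28, Axin2 at 1.92, Sfrp2 at 1.63 and Nkd2 at 1.43 RPKM. Tcf7 and Nkd1 came last with 0.476 and 0.325 RPKM, and neither passed 1 RPKM in any library. The ratio of the highest to the lowest group mean was 67.0 for Sfrp2, 6.88 for Sfrp1, 5.31 for Lef1 and 4.75 for Nkd2, and between 1.40 and 2.0 for the other 6 genes.

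**Figure D1:**
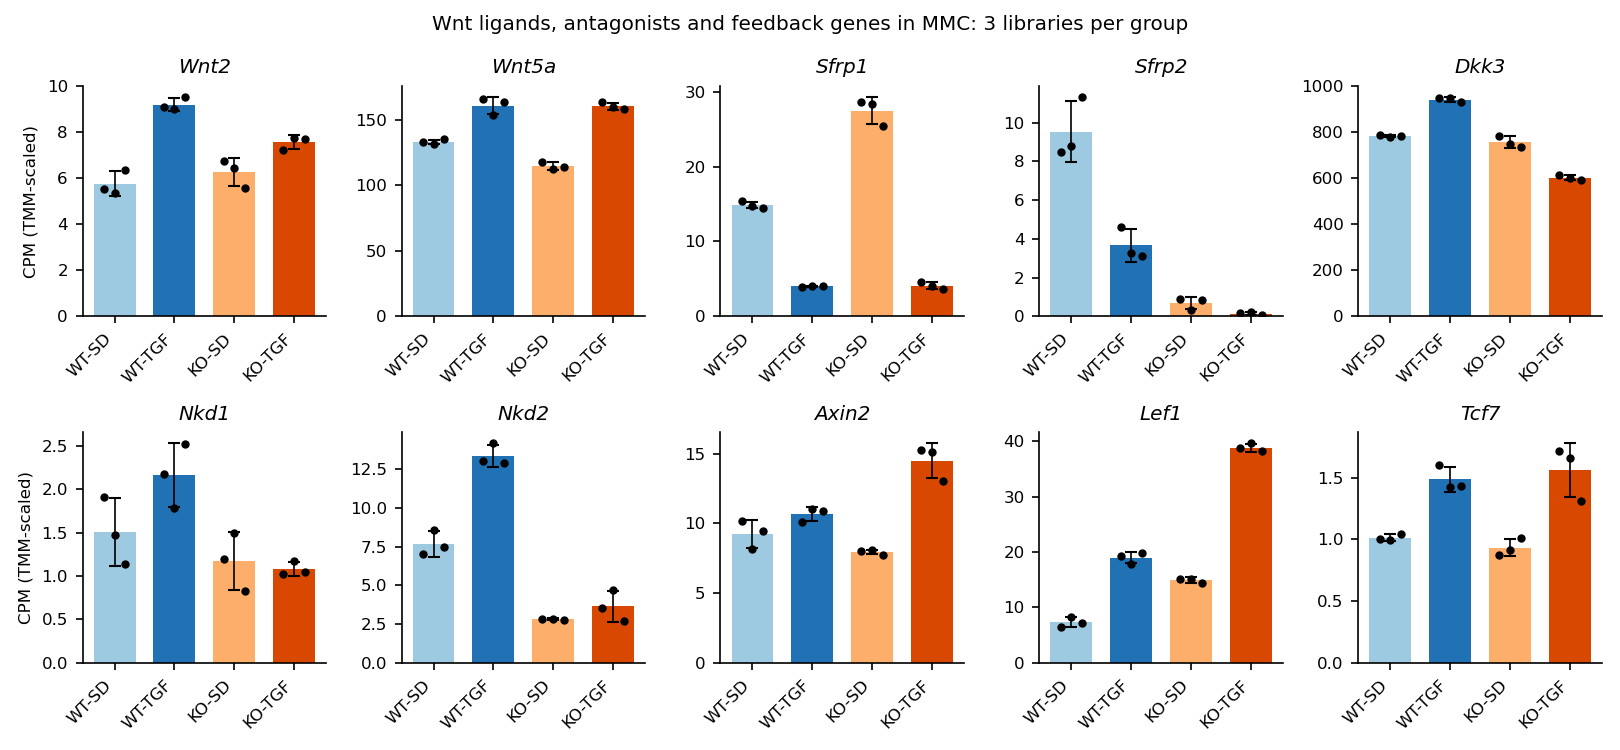
Level of each of the 10 genes in CPM (y axis, from 0, with library sizes scaled by TMM) in the 4 groups; bars are means of 3 libraries, error bars the SD and points the libraries. Lef1 is highest in KO-TGF, Sfrp1 in KO-SD, Sfrp2 in WT-SD, and Nkd2 and Dkk3 in WT-TGF.

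Stretches before an annotated start of 3 genes are shown because these 3 differed more than 2-fold between KO and WT both in SD and with TGF-β, Lef1 upwards and Nkd2 and Sfrp2 downwards. Each is the 250 bases before an annotated start in RefSeq on GRCm38.p6, written 5′ to 3′ on the strand of the gene, and capitals mark CAGAC or its reverse complement GTCTG, the core letters of SMAD binding elements, which mediate TGF-β signals. The stretch of Lef1 is chr3:131110047-131110296 on the plus strand, that of Nkd2 is chr13:73847632-73847881 on the minus strand and that of Sfrp2 is chr3:83766071-83766320 on the plus strand. The stretches of Lef1 and Nkd2 end at the edge of the gene, whereas that of Sfrp2 lies inside the RefSeq span of the gene, which begins at a start further upstream.
Lef1: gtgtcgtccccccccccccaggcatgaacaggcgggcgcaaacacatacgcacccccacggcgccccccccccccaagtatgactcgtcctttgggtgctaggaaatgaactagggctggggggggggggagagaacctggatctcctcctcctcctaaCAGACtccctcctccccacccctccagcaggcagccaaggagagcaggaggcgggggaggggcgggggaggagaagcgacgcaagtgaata
Nkd2: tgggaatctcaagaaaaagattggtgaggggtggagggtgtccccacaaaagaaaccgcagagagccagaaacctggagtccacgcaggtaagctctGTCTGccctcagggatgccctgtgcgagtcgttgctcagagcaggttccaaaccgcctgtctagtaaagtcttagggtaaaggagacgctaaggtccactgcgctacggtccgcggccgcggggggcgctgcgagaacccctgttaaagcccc
Sfrp2: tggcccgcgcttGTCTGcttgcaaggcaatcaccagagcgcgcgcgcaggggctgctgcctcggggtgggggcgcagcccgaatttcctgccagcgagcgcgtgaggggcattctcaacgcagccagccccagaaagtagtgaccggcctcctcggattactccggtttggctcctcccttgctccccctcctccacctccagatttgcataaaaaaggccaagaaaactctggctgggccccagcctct
Windows of 300 bases, from 250 before to 50 after a start, were found for 7 of the 10 genes, 11 windows in all, and not for Wnt5a, Sfrp1 and Dkk3. CAGAC on either strand occurred in 8 of the 11 windows, and in 49.6% of all 32851 windows of the same length. CTTTGAT or CTTTGTT, core letters of TCF and LEF sites, occurred on either strand in 0 of the 11 windows and in 9.33% of all windows. Overlapping windows of Lef1 share letters, a match of letters is not a binding site, and nothing follows about sites outside these windows.

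Each pair of groups was compared with edgeR's quasi-likelihood test, and a gene was called at FDR <5% (Benjamini-Hochberg over all genes tested). The fit held 11521 genes with RPKM >1 in at least 1 library, among them 8 of the 10 genes. Nkd2 and Sfrp2 passed that limit only through their 6 WT libraries. In TMM-scaled RPKM, Lef1 was over 1 in 9 of the 12 libraries and under it in WT-SD. Sfrp1 was over 1 in 7 of them and under it in WT-TGF. The counts of called genes below therefore describe the set and are not support for a difference. Nkd1 and Tcf7 were under the limit, and their values come from a fit of the 18565 genes with any count. That fit took the spread from a common trend with no part of its own for each gene, so its FDR values can be too small. With TGF-β in WT, 6 of the 8 genes rose and 2 fell, where 36% of all genes tested rose and 36.4% fell. Nkd1 and Tcf7 were called as well, both higher, where 51.5% of all genes with a count were called in either direction. In KO, 5 of the 8 rose and 3 fell with TGF-β (34.9% and 39.1% of all genes tested), and Tcf7 was called higher and Nkd1 not called (52.3% of all genes with a count). Changes of more than 2-fold were found for Lef1, Sfrp1 and Sfrp2 in each genotype, where 9.93% of all genes in WT and 13.5% in KO passed that size. These shares are large, and a call in these comparisons was common.

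Between genotypes in SD, Lef1 and Sfrp1 were higher in KO, Nkd2, Sfrp2 and Wnt5a were lower, and the other 5 genes were not called; 30.9% of all genes tested were higher, 25.2% lower, and 40.9% of genes with a count were called. Under TGF-β, Lef1 and Axin2 were higher in KO-TGF than in WT-TGF, Nkd1, Nkd2, Sfrp2, Dkk3 and Wnt2 were lower, and Wnt5a, Sfrp1 and Tcf7 were not called; the shares over all genes were 27.3% higher and 27.8% lower, with 39.1% of genes with a count called. Lef1, Nkd2 and Sfrp2 differed by more than 2-fold in both conditions (6.44% of all genes in SD and 6.07% with TGF-β). The 8 genes tested had a median log2 fold change of 0.27 with TGF-β in WT, 0.32 in KO, −0.13 for KO-SD against WT-SD and −0.14 for KO-TGF against WT-TGF, beside medians between −0.02 and 0.02 over all genes. Library-size scaling, without TMM, moved the median of all genes by −0.16, −0.20, −0.08 and −0.12 in these 4 comparisons and by −0.05 in the interaction. It lowered the share of higher genes among those called from 49.7% to 30.4%, from 47.2% to 25.5%, from 55.0% to 36.9%, from 49.6% to 23.3% and, in the interaction, from 34.3% to 20.6%.

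**Figure D2:**
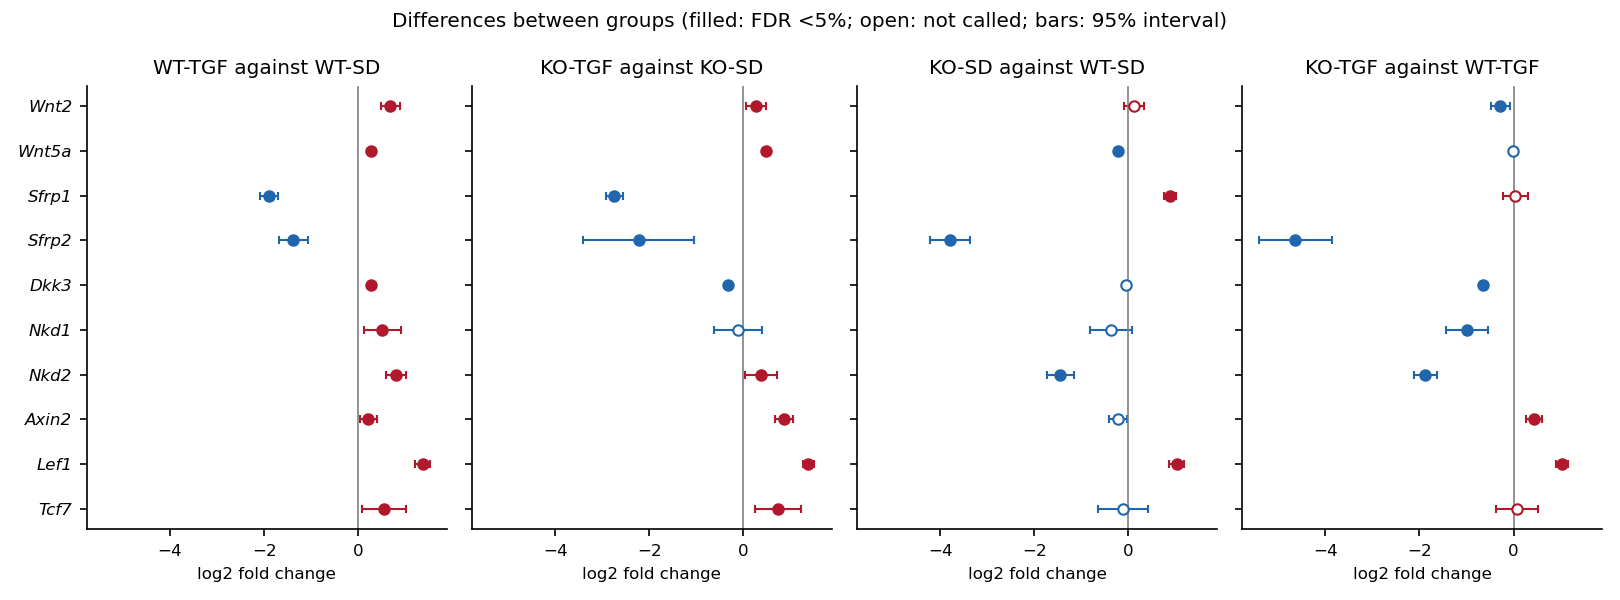
Log2 fold change (x axis) of each of the 10 genes in the 4 pairwise comparisons, with 95% intervals; filled points have FDR <5% and open points were not called, red is higher and blue lower. Sfrp2 and Nkd2 lie to the left and Lef1 to the right of 0 in both comparisons of KO with WT, while Sfrp1 moves from 0.89 in SD to 0.04 with TGF-β.

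Wnt5a (NCBI gene 22418, chr14:28504543-28527448 on the plus strand), a ligand that mostly signals without β-catenin, was the more abundant of the 2 ligands. Its level was 133, 132 and 135 CPM in the WT-SD libraries, 165, 153 and 163 CPM for WT-TGF, 118, 113 and 113 CPM for KO-SD, and 163, 159 and 158 CPM for KO-TGF. In these TMM-scaled levels, all libraries with TGF-β were above all libraries without it, and the WT-TGF and KO-TGF libraries overlapped. Wnt5a rose by 0.27 ± 0.0304 in WT (log2 fold change ± SE, FDR 3.03e-09) and by 0.48 ± 0.0313 in KO (FDR 1.04e-14). Its log2 response was larger in KO by 0.21 ± 0.0437 (interaction, FDR 0.000393). The starting level in KO-SD was below WT-SD, with a log2 difference of −0.22 ± 0.0313 (FDR 7.11e-07). With TGF-β the log2 difference between genotypes was −0.00, with a 95% interval from −0.07 to 0.06 and FDR 0.914. Under library-size scaling Wnt5a was called lower in KO-TGF, at −0.13 (FDR 0.000532). Its rises were then 0.11 in WT (FDR 0.00117) and 0.28 in KO (FDR 1.37e-09).

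Wnt2 (NCBI gene 22413, chr6:17985474-18032772 on the minus strand), a ligand of the canonical branch, was found at 5.55, 5.38 and 6.37 CPM for WT-SD, 9.08, 9.01 and 9.53 CPM for WT-TGF, 6.75, 6.47 and 5.6 CPM for KO-SD, and 7.23, 7.75 and 7.73 CPM for KO-TGF. The groups without TGF-β overlapped, and every WT-TGF library was above every KO-TGF library. The rise was 0.67 ± 0.0987 in WT (log2 fold change ± SE, FDR 4.54e-07) and 0.27 ± 0.104 in KO (FDR 0.0202). The call in KO was lost under library-size scaling (0.07, FDR 0.559) and without KO-SD replicate 3 (FDR 0.123). Wnt2 differed between KO-TGF and WT-TGF by −0.28 ± 0.0969 (FDR 0.0150), which was not called by DESeq2 (FDR 0.0707), without WT-TGF replicate 3 (FDR 0.0514) or without KO-TGF replicate 1 (FDR 0.0810). The interaction of −0.40 ± 0.144 was called (FDR 0.0383), but not in 10 of its 18 alternatives, among them DESeq2 (FDR 0.155) and the removal of 9 of the 12 libraries in turn (FDR up to 0.126).

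Sfrp1 (NCBI gene 20377, chr8:23411383-23449632 on the plus strand), a soluble Frizzled-like protein that binds Wnt ligands, gave 15.4, 14.7 and 14.5 CPM for WT-SD, 3.88, 4.01 and 4.10 CPM for WT-TGF, 28.7, 28.4 and 25.4 CPM for KO-SD, and 4.61, 4.01 and 3.68 CPM for KO-TGF. KO-SD stood above WT-SD in every library, and with TGF-β the genotypes overlapped at the lowest levels of the gene. The level fell by 1.89 on the log2 scale in WT (SE 0.0942, FDR 1.70e-17) and fell by 2.74 in KO (SE 0.0872, FDR 1.41e-22). In SD, Sfrp1 was higher in KO by 0.89 ± 0.0646 (log2, FDR 4.20e-13). With TGF-β the log2 difference was 0.04, with an interval from −0.23 to 0.30 and FDR 0.833, and its sign turned to −0.09 under library-size scaling. The fall in KO exceeded that in WT, with an interaction of −0.85 ± 0.144 (FDR 3.06e-05).

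Sfrp2 (NCBI gene 20319, chr3:83765750-83774314 on the plus strand), a related binder of Wnt ligands, showed the widest range. WT-SD libraries had 8.50, 8.80 and 11.3 CPM, WT-TGF libraries 4.63, 3.25 and 3.11 CPM, KO-SD libraries 0.873, 0.338 and 0.826 CPM, and KO-TGF libraries 0.161, 0.214 and 0.0526 CPM. No group overlapped another, and the KO-TGF values rest on 3, 4 and 1 counts, about the detection floor. From WT-SD to KO-SD the summed counts went from 639 to 44, a ratio of normalized levels of 13.9 (95% interval 10.3 to 19.4, counting error only), and the fitted log2 difference was −3.79 ± 0.210 (FDR 5.81e-16). WT-TGF exceeded KO-TGF 25.8-fold in the same terms (12.9 to 60.6, from 234 and 8 counts). TGF-β lowered Sfrp2 in WT by a factor of 2.60 (2.24 to 3.03, log2 −1.38 ± 0.146, FDR 9.74e-10) and in KO by a factor of 4.82 (2.25 to 11.9, FDR 0.00101 in the fit). The responses were not shown to differ, with an interaction of −0.85 and a 95% interval from −2.13 to 0.44 (FDR 0.367).

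Dkk3 (NCBI gene 50781, chr7:112116019-112159482 on the minus strand), a secreted protein of the Dickkopf family that differs from its relatives in not clearly blocking LRP co-receptors, was the most abundant of the 10 genes. It gave 788, 782 and 783 CPM for WT-SD, 949, 949 and 929.7 CPM for WT-TGF, 785, 750.2 and 737 CPM for KO-SD, and 614, 601 and 592 CPM for KO-TGF. The libraries with TGF-β lay above those without it in WT and below them in KO, while the groups without TGF-β overlapped. Dkk3 rose by 0.27 ± 0.0236 in WT (log2, FDR 2.11e-11) and fell by 0.33 in KO (SE 0.0239, FDR 1.55e-13). The difference between these responses was −0.60 ± 0.0336 (interaction, FDR 9.87e-15). KO-TGF was below WT-TGF by a log2 difference of −0.65 ± 0.0239 (FDR 2.43e-20). Under library-size scaling the response to TGF-β was 0.11 in WT (FDR 0.000131) and −0.53 in KO (FDR 2.36e-19). In SD the difference of −0.05 ± 0.0237 was not called (FDR 0.0702), but was called in 8 of 19 alternatives, with −0.13 under library-size scaling (FDR 2.64e-05) and −0.08 without KO-SD replicate 1 (FDR 0.00243).

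Nkd2 (NCBI gene 72293, chr13:73818534-73847631 on the minus strand), a membrane-associated inhibitor that binds Dishevelled, gave 7.0, 8.59 and 7.46 CPM for WT-SD, 13.0, 14.2 and 12.9 CPM for WT-TGF, 2.85, 2.85 and 2.75 CPM for KO-SD, and 3.54, 4.71 and 2.73 CPM for KO-TGF. All KO libraries were below all WT libraries, and the KO groups overlapped. The log2 difference of KO from WT was −1.45 ± 0.138 in SD (FDR 1.92e-10) and −1.87 ± 0.122 with TGF-β (FDR 3.59e-14). Nkd2 rose in WT by 0.80 ± 0.101 (FDR 3.18e-08). The rise in KO of 0.38 ± 0.168 was just called (FDR 0.0447), and without KO-TGF replicate 2, the highest of its group, it was 0.17 (FDR 0.382). It was also lost under library-size scaling (0.17, FDR 0.354) and without any of 5 other libraries (WT-TGF replicate 3, each of the 3 KO-SD libraries and KO-TGF replicate 1). The interaction of −0.42 ± 0.197 was not called (FDR 0.122, interval −0.83 to −0.02), and without KO-TGF replicate 2 it was −0.61 (FDR 0.0243).

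Nkd1 (NCBI gene 93960, chr8:88521342-88594887 on the plus strand), the close relative of Nkd2, was measured at low depth, between 18 and 51 counts in a library. It gave 1.91, 1.47 and 1.14 CPM for WT-SD, 2.17, 1.78 and 2.52 CPM for WT-TGF, 1.19, 1.5 and 0.826 CPM for KO-SD, and 1.02, 1.18 and 1.05 CPM for KO-TGF. Only the WT-TGF and KO-TGF libraries did not overlap among the 4 pairs compared. The difference there was −0.99 ± 0.227 (log2, FDR 6.35e-05, and 0.000652 in a fit of genes with CPM >1 in at least 3 libraries, where each gene kept a spread of its own). The rise of 0.51 ± 0.201 in WT was called (FDR 0.0235), though not by DESeq2 (FDR 0.153), under library-size scaling (FDR 0.136) or without WT-SD replicate 2, WT-SD replicate 3 or WT-TGF replicate 3 (FDR 0.0746, 0.188 and 0.159). For the response in KO the fit gave −0.11 ± 0.259 (FDR 0.790), for KO-SD against WT-SD −0.37 ± 0.231 (FDR 0.214), and for the interaction −0.62, with an interval from −1.26 to 0.03 (FDR 0.228).

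Axin2 (NCBI gene 12006, chr11:108917828-108950783 on the plus strand), the scaffold of the destruction complex that is induced by β-catenin, was found at 10.1, 8.15 and 9.47 CPM for WT-SD, 10.1, 11.01 and 10.9 CPM for WT-TGF, 8.04, 8.06 and 7.75 CPM for KO-SD, and 15.3, 15.1 and 13.0 CPM for KO-TGF. KO-TGF was above every other library, and the WT groups overlapped. With TGF-β, Axin2 rose by 0.86 ± 0.0895 in KO (log2, FDR 5.07e-10). The change of 0.21 ± 0.0893 in WT was called (FDR 0.0367) but was 0.05 under library-size scaling (FDR 0.615), was not called by DESeq2 (FDR 0.105) and was 0.13 without WT-SD replicate 2 (FDR 0.231). It was also lost without WT-TGF replicate 2 or 3 and without KO-TGF replicate 1 or 2 (FDR between 0.0577 and 0.107). The response was larger in KO, with an interaction of 0.65 ± 0.127 (FDR 0.000183). KO-TGF exceeded WT-TGF by 0.44 ± 0.0846 (FDR 5.61e-05), while the difference of −0.22 ± 0.0946 in SD was not called (FDR 0.0517) but was called in 8 of 19 alternatives (FDR 0.0118 without WT-SD replicate 2).

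Lef1 (NCBI gene 16842, chr3:131110297-131224357 on the plus strand), a DNA-binding partner of β-catenin, gave 6.50, 8.28 and 7.15 CPM for WT-SD, 19.2, 17.9 and 19.9 CPM for WT-TGF, 15.2, 15.2 and 14.3 CPM for KO-SD, and 38.7, 39.6 and 38.2 CPM for KO-TGF. No group overlapped another, and the order was WT-SD, KO-SD, WT-TGF, KO-TGF. Lef1 rose with TGF-β by 1.37 ± 0.0781 in WT (log2, FDR 5.08e-16) and by 1.38 ± 0.0618 in KO (FDR 8.63e-19). KO was above WT by 1.02 ± 0.0818 in SD (FDR 3.76e-12) and by 1.03 ± 0.0592 with TGF-β (FDR 1.42e-15). The difference between the responses was 0.01, with a 95% interval from −0.21 to 0.23 (FDR 0.965).

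Tcf7 (NCBI gene 21414, chr11:52246527-52283383 on the minus strand), which encodes TCF1 of the same family, gave 1.0, 0.997 and 1.05 CPM for WT-SD, 1.61, 1.43 and 1.43 CPM for WT-TGF, 0.873, 0.917 and 1.01 CPM for KO-SD, and 1.71, 1.66 and 1.31 CPM for KO-TGF. The libraries with TGF-β were above those without it in each genotype, and the genotypes overlapped in each condition. Tcf7 rose by 0.74 ± 0.252 in KO (log2, FDR 0.00749, and 0.00293 with the CPM filter), a call lost under library-size scaling (FDR 0.0604). The rise of 0.55 ± 0.241 in WT was just called (FDR 0.0441) and was lost in 11 of 19 alternatives, among them DESeq2 (FDR 0.154) and the removal of any of the 6 WT or 3 KO-TGF libraries (FDR 0.0526 to 0.123). Between genotypes the log2 difference was −0.12 ± 0.268 in SD (FDR 0.783) and 0.07 ± 0.228 with TGF-β (FDR 0.892, −0.05 under library-size scaling). The interaction was 0.19, with an interval from −0.50 to 0.88 (FDR 0.892).

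The test of the difference between the responses to TGF-β thus called 5 of the 10 genes, with a larger log2 response in KO for Axin2 and Wnt5a and a smaller or more negative one for Dkk3, Sfrp1 and Wnt2 (plot of responses in WT and KO). Over all genes tested, 8.67% had a higher and 16.6% a lower response in KO, and 16.7% of genes with a count were called. None of the 5 differences exceeded 2-fold, which 2.73% of all genes did. For the other 5 genes the intervals given above bound the difference. The interaction medians were −0.41 for the 8 genes tested and −0.03 for all genes.

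**Figure D3:**
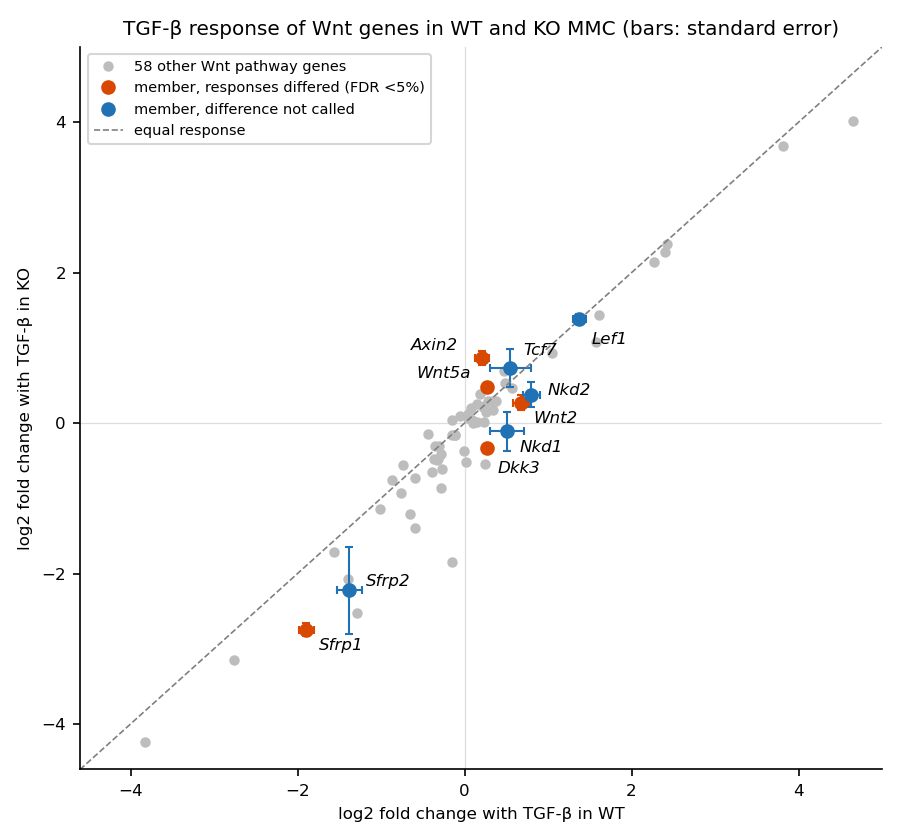
Log2 fold change with TGF-β in WT (x axis) and in KO (y axis) for the 10 genes (coloured, with standard errors; orange where the responses differed at FDR <5%) and for 58 other Wnt pathway genes (grey); the dashed line marks equal responses. Lef1 lies on the line at 1.37 and 1.38, Axin2 and Wnt5a lie above it, and Dkk3 is at 0.27 in WT and −0.33 in KO.

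Markers of other cells that a glomerular culture could hold differed between the genotypes as well. The macrophage and tubular sums, Wt1, Podxl and Synpo were lower in KO in each condition, as were Sfrp2 and Nkd2. The summed level of 7 macrophage markers was 26.2 to 28.1 CPM for WT-SD, 15.8 to 19.5 CPM for WT-TGF, 2.06 to 2.22 CPM for KO-SD and 0.802 to 1.45 CPM for KO-TGF, with Adgre1 and C1qa at 0 in every KO library. Among genes also known from podocytes, Wt1 had 98.9 CPM for WT-SD, 68.2 for WT-TGF, 25.3 for KO-SD and 11.7 for KO-TGF, Podxl had 97.9, 74.0, 32.8 and 25.9 CPM, and Synpo had 246, 313, 159.7 and 173 CPM, while Nphs1, which encodes the slit protein nephrin, had at most 1 count in any library. The sum of 8 tubular markers was 305 to 318 CPM for WT-SD, 131 to 145 CPM for WT-TGF, 165 to 180.1 CPM for KO-SD and 67.3 to 70.2 CPM for KO-TGF, mostly Pax8, with Slc34a1, Umod and Aqp2 at 0 in every library. The sum of 4 fibroblast markers, nearly all of it Col1a1, moved in the direction of Lef1 in each of the 4 comparisons. It was 4152 to 4520 CPM for WT-SD and 7791 to 8185 CPM for WT-TGF. In KO it was 9414 to 10457 CPM without TGF-β and 15517 to 16128 CPM with it. The other fibroblast markers did not share this pattern. Pdgfra, with group means of at most 3.54 CPM, fell with TGF-β (log2 −2.45 in WT, −3.18 in KO). It was also lower in KO (−0.84 in SD, −1.57 with TGF-β). Dcn fell with TGF-β (−1.45 in WT, −1.65 in KO) but was higher in KO (2.59 in SD, 2.39 with TGF-β). Lum had at most 3 counts in a library. The mesangial sum given above had the group order of Lef1. Acta2, Tagln and Cspg4 moved in the direction of Lef1 in each of the 4 comparisons. Gata3 did so except for TGF-β in WT (log2 0.00). Des fell with TGF-β (−0.45 in WT, −1.07 in KO) and was lower in KO (−3.85 in SD, −4.47 with TGF-β). Itga8 fell with TGF-β (−0.84 in WT, −2.24 in KO), and KO differed from WT by 0.07 in SD and −1.33 with TGF-β. Pdgfrb rose with TGF-β (0.41 in WT, 0.23 in KO), but KO differed from WT by 0.09 in SD and −0.10 with TGF-β. In bulk RNA, fewer cells of a type and less RNA per cell cannot be told apart, and the part of these cells in the differences between WT and KO was not tested.

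The rest of the pathway was read from a list of 86 further Wnt genes, of which 58 were tested. With TGF-β, 26 of them rose and 25 fell in WT, and 21 rose and 29 fell in KO, with medians of 0.00 and −0.07; of all genes tested, 36% rose and 36.4% fell in WT, and 34.9% and 39.1% in KO. KO-SD was higher than WT-SD for 24 and lower for 18, and KO-TGF was higher than WT-TGF for 18 and lower for 23 (all genes: 30.9% and 25.2% in SD, 27.3% and 27.8% with TGF-β). Under library-size scaling these counts were 16 higher and 34 lower, 14 and 35, 20 and 25, and 11 and 35, so that the balance of the list turned for WT with TGF-β and for KO-SD against WT-SD. Of all 11521 genes tested, that scaling gave 2640 higher and 6053 lower, 2296 and 6715, 2444 and 4187, and 1642 and 5406. The interaction called 4 of the 58 higher and 18 lower, where 8.67% and 16.6% of all genes were called. Some of the 58 also passed the limit of 1 RPKM only through the group where they are high. Among them were Wnt16, through WT-SD, and Wnt2b, through KO-SD. The counts, rankings and FDR values of this list therefore describe it and are not support for a difference.

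Among 8 other ligands tested, Wnt1, Wnt11 and Wnt9a rose most with TGF-β. Wnt11, a ligand of the branch without β-catenin, went from 2.37 ± 0.244 to 33.5 ± 1.06 CPM for WT (SD, n = 3) and from 2.68 ± 0.581 to 34.7 ± 2.34 CPM for KO (log2 3.82 and 3.69, FDR 4.21e-25 and 6.94e-25). Wnt9a went from 14.9 to 79.9 CPM for WT and from 19.2 to 100.2 CPM for KO (log2 2.42 and 2.38). Wnt1, the founding member of the family, went from 5 to 129 summed counts in WT, a ratio of 27.1 (interval 11.3 to 84.8), and from 12 to 175 in KO, a ratio of 16.6 (9.28 to 32.8). It was higher in KO-TGF than in WT-TGF by a ratio of 1.54 (1.22 to 1.94, FDR 0.00672).

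Wnt16 went the other way, and among the 58 genes it had the largest log2 difference between the genotypes. It had 46.6 ± 0.524 CPM for WT-SD, 3.30 ± 0.620 CPM for WT-TGF, 2.46 ± 0.155 CPM for KO-SD and 0.124 ± 0.0819 CPM for KO-TGF, where libraries held 1 to 4 counts. It fell by 3.83 in WT on the log2 scale (FDR 8.20e-27), and KO-SD was below WT-SD by −4.24 ± 0.0876 (FDR 9.48e-27). Wnt4 was also lower in KO, at −1.36 ± 0.181 in SD and −1.52 ± 0.175 with TGF-β (log2, FDR 1.51e-07 and 9.23e-09). Wnt10b and Wnt2b were higher in KO. Wnt10b rose from 2.21 CPM for WT-SD to 8.15 CPM for KO-SD and from 3.05 CPM for WT-TGF to 13.1 CPM for KO-TGF (log2 1.88 and 2.09), and Wnt2b from 1.20 to 9.07 CPM in SD (log2 2.90) and by a ratio of 4.72 (3.13 to 7.35) with TGF-β.

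Of 12 receptors tested, KO was higher for 8 and lower for 3 in SD, and with TGF-β 6 were higher and 4 lower, a balance that turned to 4 and 6 under library-size scaling. Over all genes tested, 30.9% were higher and 25.2% lower in SD, and 27.3% and 27.8% with TGF-β. Under library-size scaling, 1642 of the 11521 genes tested were higher and 5406 lower with TGF-β. Rspo2, a secreted amplifier of Wnt signals, fell with TGF-β from 77.7 to 11.5 CPM for WT and from 145 to 16.4 CPM for KO (log2 −2.76 and −3.15), and it was higher in KO-SD than in WT-SD by 0.90 ± 0.0427 (FDR 1.14e-17). Rspo3, its relative, went from 15.4 to 13.9 CPM for WT and from 17.2 to 4.75 CPM for KO, with an interaction of −1.70 ± 0.144 (FDR 9.23e-11). Frzb, an antagonist of the SFRP family, fell in KO from 8.08 to 1.40 CPM (log2 −2.52), with an interaction of −1.24 ± 0.260 (FDR 0.000465).

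Of 13 genes of the destruction complex and its relay, KO was higher for 4 and lower for 2 in SD, and higher for 5 and lower for 3 with TGF-β, beside 30.9% and 25.2% of all genes in SD and 27.3% and 27.8% with TGF-β. Library-size scaling turned this balance, to 2 higher and 6 lower in SD and to 1 higher and 7 lower with TGF-β. Of all 11521 genes tested, that scaling gave 2444 higher and 4187 lower in SD, and 1642 and 5406 with TGF-β. The kinases Csnk1a1 and Gsk3b had slightly larger responses in KO (interactions of 0.21 and 0.12, FDR 0.000392 and 0.0216), the latter not under library-size scaling (FDR 0.148). Among 11 nuclear factors, Pygo1, which binds β-catenin through BCL9, in KO-SD was below WT-SD by −1.04 ± 0.0477 (log2, FDR 5.13e-18). The corepressor Tle2 fell with TGF-β from 42.2 to 14.3 CPM in WT cells (log2 −1.56) and from 26.2 to 7.97 CPM in KO cells (log2 −1.72), and Tle3 had an interaction of 0.30 (FDR 1.32e-05). Ccnd1, the cyclin D1 gene and a common target, went from 111 to 73.4 CPM for WT and from 95.5 to 36.4 CPM for KO (interaction −0.80 ± 0.0616, FDR 1.28e-11). The 10 genes were not tested against these 58, and nothing is called particular to either list.

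**Figure D4:**
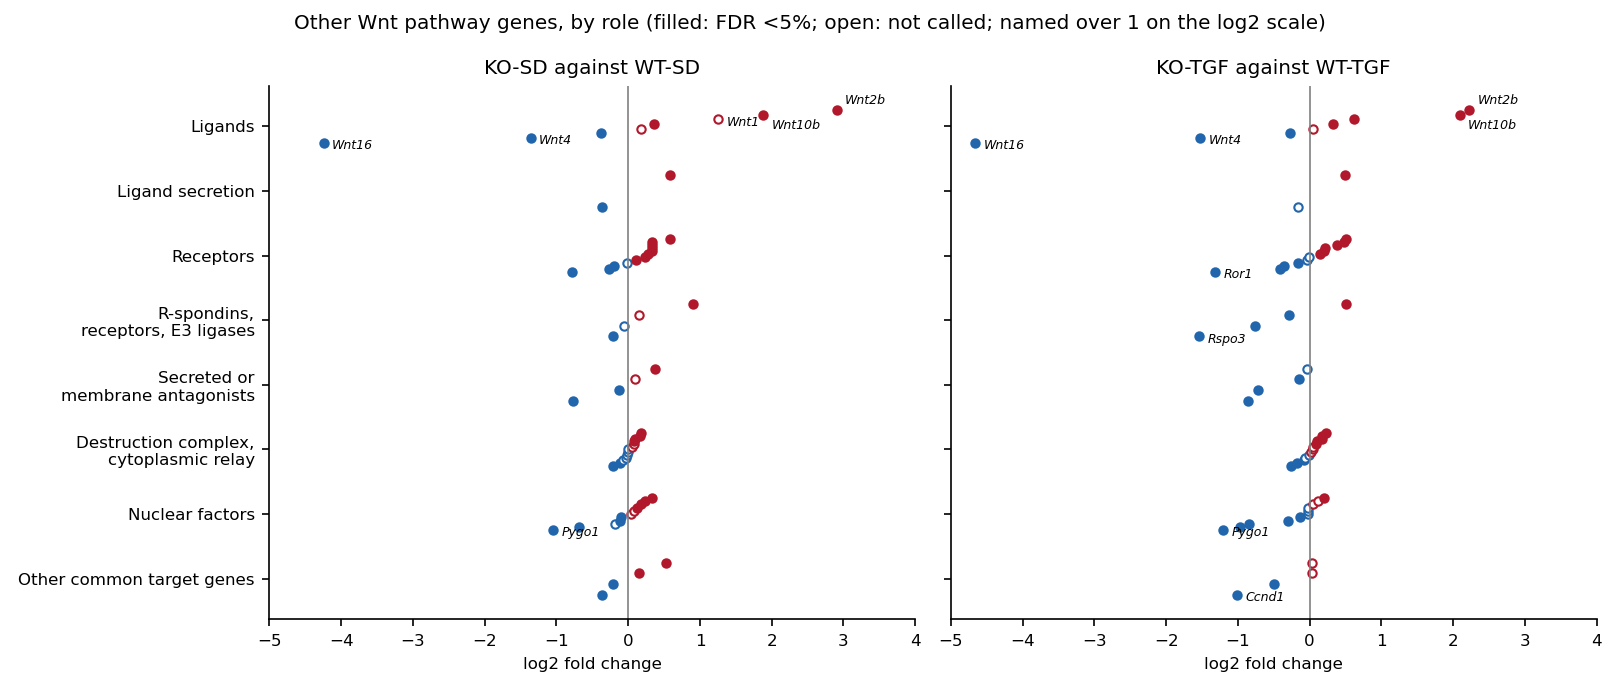
Log2 fold change (x axis) of 58 other Wnt pathway genes between KO-SD and WT-SD (left) and between KO-TGF and WT-TGF (right), in rows by role; filled points have FDR <5%, open points were not called, and genes past 1 on the log2 scale are named. Ligands spread widest, from Wnt16 at −4.24 to Wnt2b at 2.90 in SD.

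The genes whose pattern over the 12 libraries was most like that of each of the 8 genes tested were found as a description. The measure was the root mean square difference of log2 CPM, each gene centred on its own mean. They were Anxa1 (0.0416) and Psmd5 (0.0483) for Wnt5a, Sipa1l1 (0.0438) and Gxylt2 (0.0479) for Dkk3, and Slc39a14 (0.0987) and Prkca (0.101) for Wnt2. Lef1 was nearest to Pdia5 (0.10) and Tmeff1 (0.126), Sfrp1 to Hp (0.113) and Grb14 (0.119), and Axin2 to Rnf122 (0.116) and Ints11 (0.117). Nkd2 was nearest to Adgrg1 (0.198) and Sp6 (0.238), and Sfrp2 had no close match, with Cxcl2 at 0.472 and Slc5a7 at 0.535. None of these 8 genes was among the 2 nearest of another, and Nkd1 and Tcf7 were not compared. The closest of the 8 to each other were Wnt2 and Wnt5a, at 0.178.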

How the data were processed

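The authors prepared mRNA libraries with the Kapa HyperPrep kit, mapped single-end reads with TopHat (mm10) and counted them per RefSeq gene with HTSeq-count, strand-specific and without poor alignments. The values they deposited are raw counts, 1 whole number per gene and library, and neither step was repeated here. Reads on no gene (10.3% to 15.4% of a library), with several alignments (11.2% to 11.7%) or on overlapping genes (0.225% to 0.274%) stood in rows of their own and were left out. No pair of libraries of a group agreed within sampling noise (chi-square per degree of freedom 1.35 to 5.41). Exon lengths for RPKM came from merged GENCODE vM21 exons (24407 symbols matched directly, 273 by a synonym and 550 not at all).

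The limit of 1 RPKM in any library (11521 genes passed), TMM and edgeR were taken from the study's methods, and the quasi-likelihood test and the exon lengths were chosen here. Tests were run in edgeR 4.0.16 under R 4.3.3, in 1 fit of all 12 libraries with a mean per group. Adjustment was by Benjamini-Hochberg over all genes tested. SE are log2 fold changes divided by the root of F, and 95% intervals use the t distribution of the fit. All 10 genes are named, and of the 86 others, for each comparison and direction, the 3 with the largest change at FDR <5% whose higher group averaged 1 CPM or more, and the 2 genes most like each of the 8 tested. The 10 genes, the lists and the tests were chosen with earlier results of these data known. Alternatives were library-size scaling, DESeq2 1.42.0, the likelihood ratio test, no filter, a CPM filter (>1 in at least 3 libraries), separate fits of each pair of groups, the replicate number as a block, each library left out, and a 2-fold limit. The sum over 1 of the marker lists is not reported here.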

Additional observations from a re-analysis of the deposited data

Results flagged for a closer look

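The interaction of genotype and TGF-β in edgeR's quasi-likelihood fit (response in KO minus response in WT) called 5 of the 10 genes. Of all genes tested, it called 8.67% higher and 16.6% lower. Dkk3 differed by −0.60 on the log2 scale (FDR 9.87e-15), and its 3 libraries with TGF-β lay above those without it in WT and below them in KO. Sfrp1 differed by −0.85 (FDR 3.06e-05), from a higher level in KO-SD to levels that overlapped with TGF-β. Axin2 differed by 0.65 (FDR 0.000183). Wnt5a differed by 0.21 (FDR 0.000393). Wnt2 differed by −0.40 (FDR 0.0383), a call that 10 of 18 alternatives did not make. Groups of 3 libraries were too small to look for single outlying libraries.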

How the results depend on the processing

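Of the 50 values of the 10 genes (5 comparisons each), 34 kept their direction and their side of FDR 5% under every alternative run, and 16 did not in at least 1. Of 940 single values under an alternative, 859 kept both, 46 lost a call, 18 gained one and 17 changed sign. With a 2-fold limit beside FDR <5%, the number of genes called fell from 10 to 3 for TGF-β in WT, from 9 to 3 in KO, from 5 to 3 for KO-SD against WT-SD, from 7 to 3 for KO-TGF against WT-TGF and from 5 to 0 for the interaction. Leaving out each library gave 7 to 10, 7 to 9, 5 to 7, 6 to 7 and 4 to 5 genes. Library-size scaling gave 7, 6, 7, 8 and 5, and DESeq2 gave 7, 9, 6, 6 and 4. Under library-size scaling, 2640 of all 11521 genes tested were higher and 6053 lower for TGF-β in WT, and 2296 and 6715 in KO. The numbers were 2444 and 4187 for KO-SD against WT-SD, 1642 and 5406 for KO-TGF against WT-TGF, and 685 and 2647 for the interaction. For DESeq2, the left-out libraries and the replicate block, the shares over all genes are not given. The counts under the alternatives describe the 10 genes only.

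Each value that changed sign was not called, before or after. Wnt5a between KO-TGF and WT-TGF was 0.011 with DESeq2, 0.0020 with the CPM filter, 0.0072 with no filter and −0.038 to 0.021 without single libraries. Sfrp1 in that comparison was −0.085 and Tcf7 −0.053 under library-size scaling, and Sfrp1 was −0.037 to 0.13 without single libraries, lowest without KO-TGF replicate 1. The interaction of Lef1 was −0.036 under library-size scaling, −0.0065 with no filter and −0.096 to 0.085 without single libraries. Nkd1 in KO was −0.31 to 0.098 without single libraries, highest without KO-SD replicate 2. The cause was not tested.

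Libraries with the same replicate number deviated together weakly at most (correlations −0.026 to 0.076, median 0.020, 0 of 18 pairs over 0.1). The 36 pairs with other numbers had correlations of −0.090 to 0.049, with a median of −0.011. A weak pairing by number can therefore not be excluded. With the replicate block, 10, 9, 7, 7 and 5 genes were called. The block added Axin2 (FDR 0.0486) and Dkk3 (FDR 0.0353) for KO-SD against WT-SD. Depth limits Nkd1, Tcf7 and, in KO, Sfrp2, which have few counts per library.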
